A study of Mus musculus with 6 samples.

Results

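Adipokines are proteins and peptides that fat cells release into the blood or the surrounding tissue. A list of 10 such genes was followed: Adipoq, Lep, Retn, Cfd, Rbp4, Nampt, Rarres2, Lcn2, Fgf21 and Apln. All 10 were found among the 22942 genes in the tables by symbol, and for each the RefSeq transcript with the highest mean over the 6 libraries stood for the gene. The list was set by what the genes are known for and not by a threshold on their values. It was chosen with earlier results of these data known, so counts over it are a description.

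The cells were C3H-10T1/2, a mouse mesenchymal cell line that can form fat cells in culture. There were 2 groups with n = 3 cultures each, and polyadenylated RNA was sequenced at day 6 of brown adipocyte differentiation. The first group received 4 uM of 611 (Cpd A), which inhibits LSD1, a histone demethylase. The second received the solvent DMSO. Both groups passed through the same induction for 72 h with isobutylmethylxanthine, indomethacin, dexamethasone, insulin, T3 and rosiglitazone, and then stayed in insulin, T3 and rosiglitazone. Rosiglitazone activates PPARG and dexamethasone the glucocorticoid receptor. Cells of both groups received these drugs, dexamethasone only during the 72 h of induction. The labels differ on when treatment began, at seeding or 12 h later, and 1 of them places induction 48 h after it.

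Adiponectin, leptin and resistin are hormones that fat cells send to liver, brain and muscle, and adipsin was among the first proteins found to be made mainly by fat cells. Several of their genes are switched on late in fat cell formation by PPARG and the C/EBP factors. Brown fat also releases factors of its own, among them FGF21. LSD1 takes methyl groups from histone H3 and works in complexes with CoREST proteins.

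Sequences just before the start site are shown for 5 of the genes: Adipoq, which had the highest level, Cfd and Retn, which fell most among the well-measured genes, and Lcn2 and Lep, which hold a C/EBP-like motif. They are the 250 bases upstream, from RefSeq on build GRCm38.p6, read 5′ to 3′ on the gene's strand. The windows are chr16:23146286-23146535 (plus strand) for Adipoq, chr10:79890603-79890852 (plus) for Cfd, chr8:3655520-3655769 (plus) for Retn, chr2:32387740-32387989 (minus) for Lcn2 and chr6:29059971-29060220 (plus) for Lep. Capitals mark any match, on either strand, to TTGCNNAA (C/EBP-like), AGGTCA (single nuclear receptor site), DR1 (that site repeated with 1 base between the copies), CCAAT or TATAAA. DR1 holds AGGTCA, so the counts of these motifs overlap.
Adipoq: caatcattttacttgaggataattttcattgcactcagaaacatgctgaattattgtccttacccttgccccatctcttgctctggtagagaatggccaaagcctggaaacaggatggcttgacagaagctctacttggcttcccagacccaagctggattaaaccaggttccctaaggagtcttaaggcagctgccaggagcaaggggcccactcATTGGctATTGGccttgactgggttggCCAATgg
Cfd: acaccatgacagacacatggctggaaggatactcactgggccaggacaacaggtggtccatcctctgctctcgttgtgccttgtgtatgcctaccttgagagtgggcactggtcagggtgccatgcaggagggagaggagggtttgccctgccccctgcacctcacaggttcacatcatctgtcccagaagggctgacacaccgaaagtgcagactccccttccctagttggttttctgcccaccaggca
Retn: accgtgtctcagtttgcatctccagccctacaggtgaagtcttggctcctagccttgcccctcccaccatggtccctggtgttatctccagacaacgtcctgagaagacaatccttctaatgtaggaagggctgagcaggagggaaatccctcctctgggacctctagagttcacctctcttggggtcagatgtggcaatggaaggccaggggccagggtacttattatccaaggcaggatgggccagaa
Lcn2: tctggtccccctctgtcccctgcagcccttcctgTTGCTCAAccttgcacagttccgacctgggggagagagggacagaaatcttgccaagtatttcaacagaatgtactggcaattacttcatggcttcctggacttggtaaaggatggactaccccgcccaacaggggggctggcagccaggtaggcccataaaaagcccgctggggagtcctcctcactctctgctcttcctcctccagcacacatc
Lep: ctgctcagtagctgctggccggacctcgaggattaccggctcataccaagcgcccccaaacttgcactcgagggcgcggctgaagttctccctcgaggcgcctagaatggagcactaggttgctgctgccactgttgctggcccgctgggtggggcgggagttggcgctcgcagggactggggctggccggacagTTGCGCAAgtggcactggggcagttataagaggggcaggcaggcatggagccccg

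In these windows Adipoq held CCAAT on the plus strand once and on the minus strand at 2 further places, all between positions -34 and -3. Lcn2 held TTGCTCAA from position -216 to -209, counted from -1 at the last base before the start site. Lep held the palindrome TTGCGCAA from -55 to -48. Cfd and Retn held none of the 5 motifs. Promoter windows were found for 9 of the 10 genes, 10 windows in all because Rbp4 had 2, and 3 of the 10 held TTGCNNAA, against 9.56% of the 32851 windows of all genes. CCAAT was in 2 of the 10 windows and in 33.8% of all, TATAAA in 2 and in 12.4%, AGGTCA in 1 and in 14.0%, and DR1 in 0 and in 0.0335%. A match describes the letters of the window and does not show a bound site.

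Levels are RPKM, which divides the reads of a transcript by its length and by the library's depth, so they can be set side by side between genes. Library totals recovered from the steps of low values were 4.08e+07, 4.12e+07 and 4.09e+07 for 611 replicates 1, 2 and 3 and 3.88e+07, 3.97e+07 and 3.98e+07 for DMSO replicates 1, 2 and 3. The sources used here do not say whether pairs were counted. Fold changes were tested with limma on log2(RPKM + 1) over the 13829 genes with at least 0.1 RPKM in at least 3 libraries, with Benjamini-Hochberg adjusted p below 0.05 as the threshold for a call. The log2 fold change is 611 minus DMSO, and the added 1 makes it smaller than the ratio of levels for genes of low level.

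The adipokine genes were lower with 611. Of the 10, 8 were above the filter in all 6 libraries, and of these 7 were called lower and 0 higher, while 17.7% of all genes tested were called lower and 41.6% higher. Apln was the eighth and missed the threshold. Lep was too low to test. Rbp4 passed the filter only through its DMSO libraries, so its call is left out of these counts. The median log2 fold change of the 8 was -0.76, against 0.10 over all genes tested. In 7 of the 8 all 3 libraries with 611 lay below all 3 with DMSO, which was so for 20.4% of all genes tested, while 45.8% had all 3 libraries with 611 above.

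**Figure D1:**
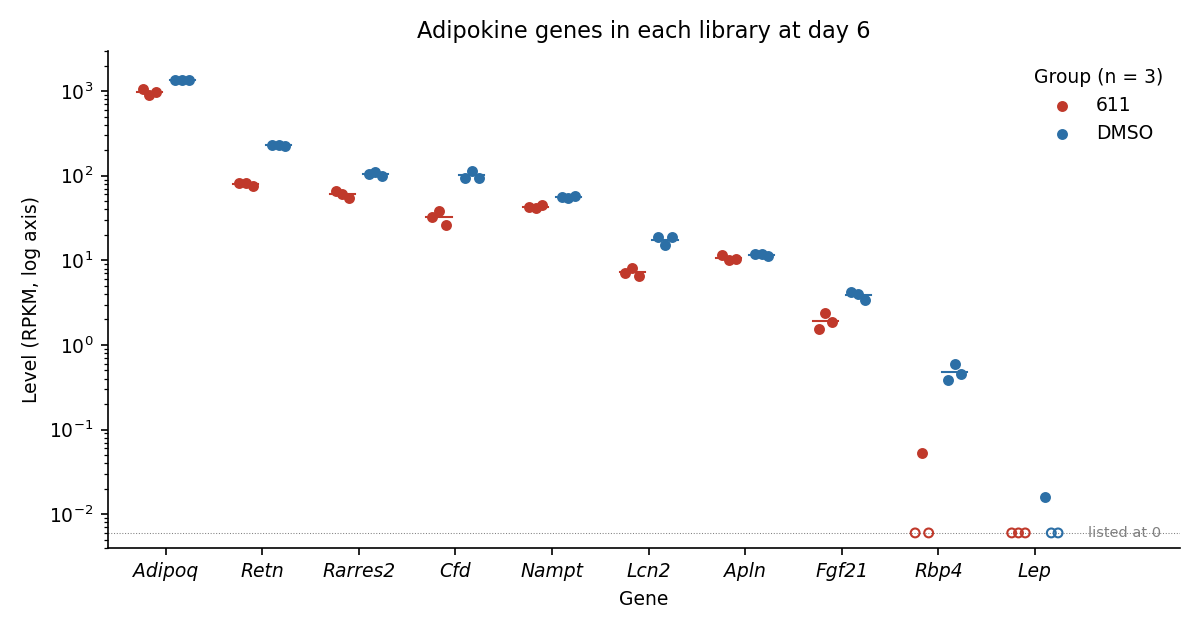
Level of each adipokine gene in RPKM on a log axis, 1 point per library, with lines at the group means where no library was at 0 and open circles for values listed at 0. The 3 libraries with 611 lie below the 3 with DMSO for every gene but Apln and Lep.

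Adipoq encodes adiponectin, the most abundant fat cell hormone, which improves the response to insulin. It stood at 1050.1, 911 and 965 RPKM with 611 and at 1356, 1371 and 1372 RPKM with DMSO. The groups did not overlap, and the libraries with 611 were spread more widely than those with DMSO. The mean was 975 ± 70.1 with 611 and 1366 ± 8.60 with DMSO (SD, n = 3 each), 1.40-fold lower, with a log2 fold change of -0.49 ± 0.060 (SE, limma Benjamini-Hochberg adjusted p = 0.000145).

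Retn encodes resistin, a hormone that in mice comes from fat cells and works against insulin. Its level was 82.0, 82.0 and 76.6 RPKM with 611 and 234, 233 and 225 RPKM with DMSO. All 3 libraries with 611 were close together and far below the DMSO ones. The log2 fold change was -1.51 ± 0.040 (SE, n = 3 each, limma Benjamini-Hochberg adjusted p = 1.8e-07), a level 2.88-fold lower. A second Retn transcript was listed at 43.7, 42.7 and 40.1 RPKM with 611 and 122, 123 and 119 RPKM with DMSO. The level of Retn therefore depends on the transcript chosen, but the log2 fold change of the second transcript was -1.50.

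Lep encodes leptin, which signals the size of fat stores to the brain. It was listed at 0 in all 3 libraries with 611 and in DMSO replicates 2 and 3, and at 0.0158 RPKM in DMSO replicate 1. That value is worth 2 reads, and 3 reads would be 0.0237 RPKM in that library. Between 0.0224 and 0.0232 RPKM, the worth of 3 reads, could have been present in the libraries listed at 0, by counting error alone. No library reached 3 reads, with or without the inhibitor, and no fold was computed.

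Cfd encodes adipsin, or complement factor D, the serine protease that starts the alternative complement pathway. It was at 32.6, 38.2 and 26.0 RPKM with 611 and at 94.7, 115 and 93.3 RPKM with DMSO. The highest library with 611 lay far below the lowest with DMSO. Its log2 fold change, -1.62 ± 0.13 (SE, n = 3 each, limma Benjamini-Hochberg adjusted p = 1.05e-05), was the most negative among the 8 genes above the filter in all 6 libraries, 3.13-fold lower in level.

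Lcn2 encodes lipocalin 2, a secreted carrier that binds bacterial siderophores and is also made by neutrophils. Its values were 7.09, 8.08 and 6.59 RPKM with 611 and 18.9, 15.0 and 18.7 RPKM with DMSO. No library with 611 came near the lowest DMSO library. The level was 2.42-fold lower, with a log2 fold change of -1.16 ± 0.096 (SE, n = 3 each, limma Benjamini-Hochberg adjusted p = 1.3e-05).

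Rbp4 encodes retinol binding protein 4, which carries vitamin A in blood and comes mainly from liver and fat. It was listed at 0, 0.0522 and 0 RPKM with 611 and at 0.387, 0.595 and 0.459 RPKM with DMSO. Lengths near the reference length of 937 bases were searched for whole reads, and 931 bases was the nearest that gave them. At that length the values were 0, 2 and 0 reads with 611 and 14, 22 and 17 with DMSO. The pooled reads gave a ratio of 0.0364 for 611 over DMSO, which holds no measure of the spread between cultures. Since only the DMSO libraries brought Rbp4 past the filter, neither an interval for this ratio nor the limma p of Rbp4 is given. The log2 fold change was -0.54 ± 0.067 (SE, n = 3 each) and depended on the added constant, at -2.32 with 0.1 in place of 1. With the transcripts of a gene summed it was -0.83, and a second Rbp4 transcript gave -0.42. Rbp4 was thus a low-level gene in the DMSO cells too.

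Rarres2 encodes chemerin, a secreted attractant of immune cells that also supports fat cell formation. It was at 65.3, 61.2 and 55.1 RPKM with 611 and at 104, 110.1 and 99.7 RPKM with DMSO. The groups did not overlap. Its level was 1.73-fold lower, with a log2 fold change of -0.78 ± 0.063 (SE, n = 3 each, limma Benjamini-Hochberg adjusted p = 1.2e-05). In the reference its span overlaps Lrrc61, which was at 16.2 ± 1.00 RPKM with 611 and 23.7 ± 1.56 RPKM with DMSO and was also called lower. Whether counting used strand is not given, so some reads could belong to either gene.

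Nampt encodes the enzyme that recycles nicotinamide to NAD, and a secreted form is known as visfatin. It was at 42.3, 41.7 and 44.9 RPKM with 611 and at 56.2, 54.4 and 57.5 RPKM with DMSO. The groups were separate with a narrow spread in each. The fall was modest, 1.30-fold, with a log2 fold change of -0.38 ± 0.041 (SE, n = 3 each, limma Benjamini-Hochberg adjusted p = 6.8e-05). Nampt overlaps Gdap10 in the reference, a gene at 2.34 ± 0.0783 RPKM with 611 and 3.17 ± 0.556 RPKM with DMSO and was called lower too.

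Fgf21 encodes an endocrine fibroblast growth factor, released by liver and by active brown fat. Its level was 1.53, 2.36 and 1.89 RPKM with 611 and 4.24, 4.04 and 3.37 RPKM with DMSO. All libraries with 611 lay below those with DMSO, though the spread was wide for both. It was 2.02-fold lower, with a log2 fold change of -0.75 ± 0.11 (SE, n = 3 each, limma Benjamini-Hochberg adjusted p = 0.000451).

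Apln encodes apelin, a peptide that acts on vessels and heart and is also made by fat cells. It was at 11.5, 9.97 and 10.4 RPKM with 611 and at 11.9, 11.9 and 11.3 RPKM with DMSO. The highest library with 611 lay inside the DMSO range. The log2 fold change of -0.13 ± 0.058 missed the threshold (SE, n = 3 each, limma Benjamini-Hochberg adjusted p = 0.0847). It passed in the fit with the replicate number as a block (limma Benjamini-Hochberg adjusted p = 0.0465). It also passed without 611 replicate 1, at a log2 fold change of -0.19 (limma Benjamini-Hochberg adjusted p = 0.0175). Once libraries were rescaled by the median of gene ratios, it was at -0.27 (limma Benjamini-Hochberg adjusted p = 0.00554).

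**Figure D2:**
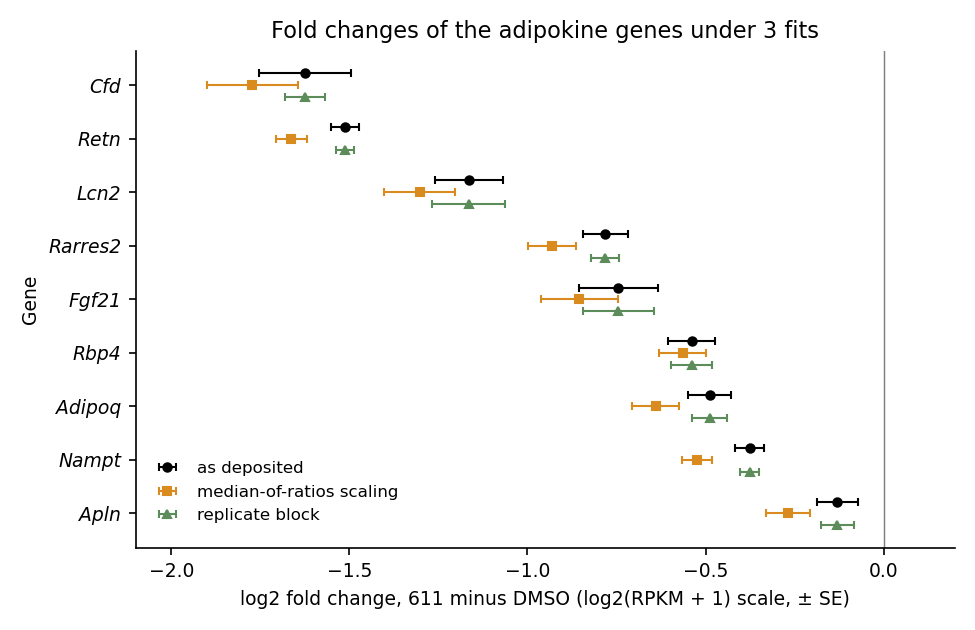
Fold change of the 9 tested adipokine genes, 611 minus DMSO, on the log2(RPKM + 1) scale with SE, from the values as deposited, after median-of-ratios scaling and with the replicate number as a block. All points lie below 0, from -1.62 for Cfd to -0.13 for Apln as deposited, and the bar of Rbp4 is shortened by the added 1 because its level is low.

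Scaling matters here because more genes were called higher than lower in the values as deposited. Of all calls 70.1% were higher with 611 as deposited and 49.9% after median-of-ratios scaling, where 28.6% of genes tested were lower and 28.5% higher. The scaling dropped the log2 fold change of a typical gene by 0.13. Since it lowers every library with 611, it made all 9 tested adipokine genes more negative, with Adipoq at -0.64, Nampt at -0.52, Cfd at -1.77 and Retn at -1.66. With scaling all 8 adipokine genes above the filter in every library were called lower, and with the block 8, against 19.5% of all genes tested lower and 44.6% higher in that fit.

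**Figure D3:**
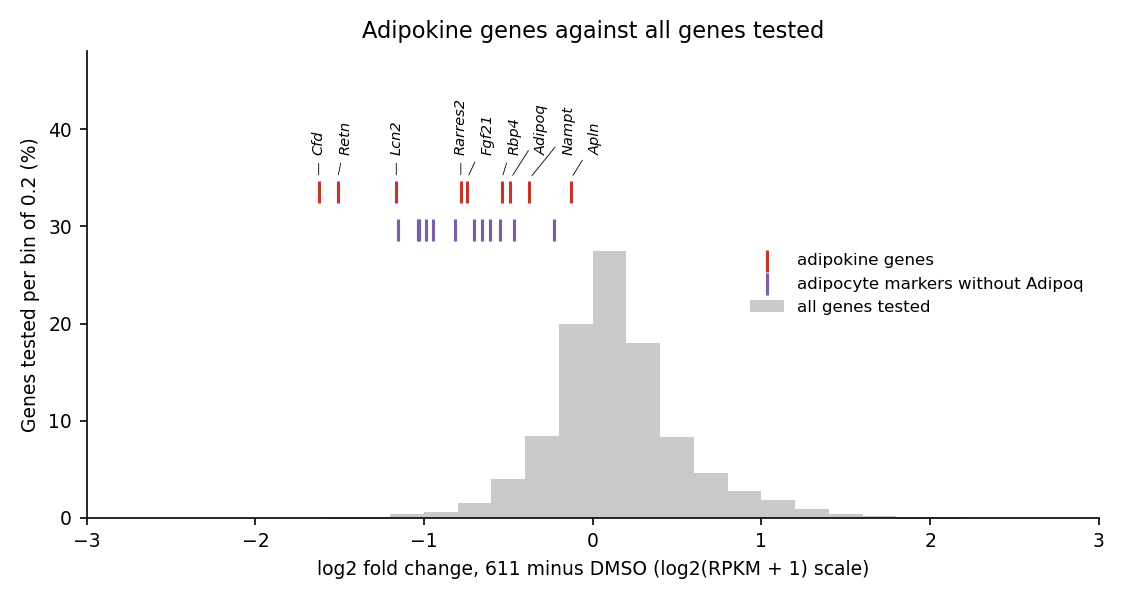
Share of the 13829 genes tested in each 0.2-wide bin of log2 fold change (grey bars), with 1 tick for each adipokine gene and for each adipocyte marker other than Adipoq. Cfd at -1.62, Retn at -1.51 and Lcn2 at -1.16 are the 3 adipokine ticks below -1, a range that holds 0.651% of all genes tested.

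The order of levels differed between the groups. With 611 it ran Adipoq, Retn, Rarres2, Nampt, Cfd, Apln, Lcn2, Fgf21, then Rbp4 and Lep, and only the last pair of neighbours overlapped between libraries. With DMSO it ran Adipoq, Retn, Rarres2, Cfd, Nampt, Lcn2, Apln, Fgf21, Rbp4 and Lep, and only Rarres2 and Cfd overlapped. The place of Retn with 611 depends on the transcript chosen. Its second transcript, at 43.7, 42.7 and 40.1 RPKM with 611, would lie below Rarres2 and overlap Nampt. With DMSO, at 122, 123 and 119 RPKM, that transcript would keep the place of Retn. Cfd was below Nampt in every library with 611, at 26.0 to 38.2 against 41.7 to 44.9 RPKM, and above it in every DMSO library, at 93.3 to 115 against 54.4 to 57.5 RPKM. Lcn2 likewise was below Apln in every library with 611, at 6.59 to 8.08 against 9.97 to 11.5 RPKM, and above it with DMSO, at 15.0 to 18.9 against 11.3 to 11.9 RPKM.

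Levels relative to Adipoq in the same library do not depend on how libraries are scaled. Cfd was at 31.0, 41.9 and 27.0 RPKM per 1000 RPKM of Adipoq with 611 and at 69.8, 83.6 and 68.0 with DMSO. Retn was at 78.0, 90.0 and 79.4 with 611 and at 172, 170.1 and 164 with DMSO, also per 1000 RPKM of Adipoq. Both were thus lower relative to Adipoq in every library with 611. Lcn2 averaged 7.49 ± 1.20 with 611 and 12.8 ± 1.64 with DMSO, and Rarres2 62.2 ± 5.03 with 611 and 76.6 ± 3.82 with DMSO, per 1000 RPKM of Adipoq (SD, n = 3 each). Apln moved the other way against Adipoq, at 11.0, 10.9 and 10.8 with 611 and 8.80, 8.69 and 8.24 with DMSO. Nampt, at 44.2 ± 3.42 with 611 and 41.0 ± 1.17 with DMSO, and Fgf21, at 2.00 ± 0.569 with 611 and 2.84 ± 0.349 with DMSO, overlapped between the groups. The 5 ratios without overlap each had p = 0.1 in an exact two-sided permutation test, the smallest p that 3 against 3 allows, and 0.14 after Benjamini-Hochberg adjustment over 7 ratios. Nampt had an exact permutation p of 0.3 and Fgf21 of 0.2.

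**Figure D4:**
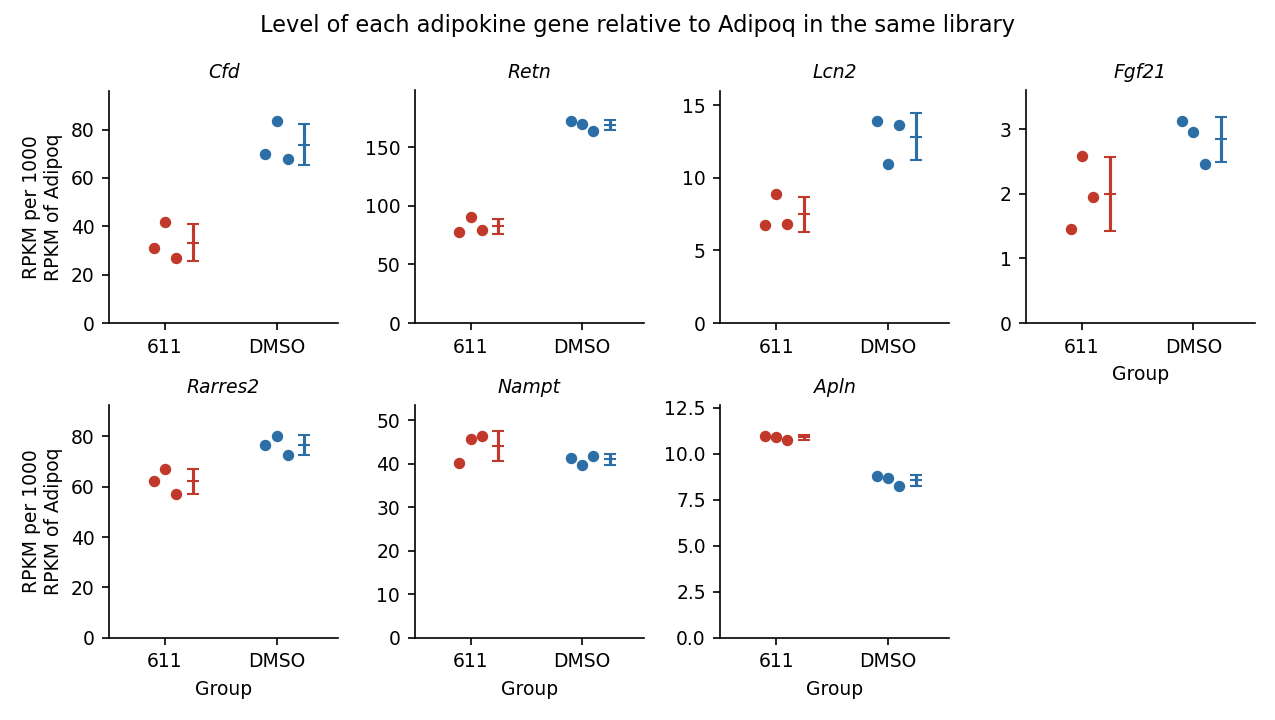
RPKM of 7 adipokine genes per 1000 RPKM of Adipoq in the same library, 1 point per library, with mean and SD beside them and each axis starting at 0. Cfd, Retn, Lcn2 and Rarres2 are lower with 611 in every library, Apln is higher in every library, and Nampt and Fgf21 overlap.

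Markers of other states and cell types moved in the same libraries. All 13 adipocyte markers, Adipoq among them, were called lower, where 17.7% of all genes tested were. Their median log2 fold change was -0.70. Their summed level was 15319 to 16916 RPKM with 611 against 29511 to 30714 RPKM with DMSO, mostly from Fabp4. Of 6 brown fat markers above the filter in all 6 libraries 4 were lower and 1 higher, or 4 and 0 after scaling. Of all genes tested 17.7% were lower and 41.6% higher, or 28.6% and 28.5% after scaling. All 10 brown fat markers together had sums of 84.3 to 103 RPKM with 611 and 224 to 269 RPKM with DMSO, mostly from Elovl3. Ucp1, the uncoupling protein that defines brown fat, was listed at 0 in every library. Of 9 tested preadipocyte markers 7 were higher and 0 lower, where 41.6% of all genes tested were higher. Preadipocyte marker sums were 220.2 to 236 RPKM with 611 and 67.2 to 76.1 RPKM with DMSO. Ly6a was the largest part of these sums, at 130 ± 2.88 with 611 and 31.3 ± 2.77 with DMSO. In bulk RNA, fewer fat cells and less adipokine mRNA per fat cell cannot be told apart. The part of these marker shifts in the adipokine results was not tested.

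Markers of other cell types were at low levels. The 8 matched macrophage markers summed to 0.444 to 0.543 RPKM with 611 and 0.173 to 0.299 RPKM with DMSO, with Ptprc, Itgam and Cd163 listed at 0 throughout. The 6 endothelial markers summed to 0.313 to 0.323 RPKM with 611 and 0.0875 to 0.232 RPKM with DMSO, with Cdh5, Kdr and Tie1 at 0. The 6 neutrophil markers summed to 1.74 to 3.69 RPKM with 611 and 2.47 to 3.55 RPKM with DMSO, mostly from S100a8, with its partner S100a9 at 0. The 7 skeletal muscle markers summed to 1.66 to 2.01 RPKM with 611 and 3.90 to 5.24 RPKM with DMSO, with Myod1, Myog and Ckm at 0, and Acta1 was lower at 0.273 ± 0.0790 with 611 against 2.63 ± 0.548 with DMSO.

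The receptors through which these hormones act moved in both directions. Of 20 listed receptors and partners 12 could be tested, of which 3 were lower and 7 higher, where 17.7% of all genes tested were lower and 41.6% higher. After scaling 4 were lower and 6 higher, where 28.6% and 28.5% of all genes were. The median log2 fold change was 0.24 as deposited and 0.11 after scaling, against 0.10 and -0.0024 for all genes tested. Cmklr1, the signalling receptor of chemerin, was at 4.81 ± 0.391 RPKM with 611 and 1.32 ± 0.182 RPKM with DMSO, 3.65-fold higher, opposite in direction to its ligand gene Rarres2. Cdh13, T-cadherin, which binds adiponectin at the cell surface, was 2.54-fold higher at 8.88 ± 0.926 with 611 against 3.49 ± 0.377 with DMSO. Slc22a17, a receptor for lipocalin 2, was 1.48-fold higher at 1.83 ± 0.316 with 611 against 1.24 ± 0.141 with DMSO. Adipor2, an adiponectin receptor, fell with its ligand gene, at 209 ± 4.76 with 611 and 287 ± 5.24 with DMSO, 1.37-fold lower. Adipor1, the other adiponectin receptor, was at 52.1 ± 1.72 with 611 and 53.1 ± 2.13 with DMSO and missed the threshold (limma Benjamini-Hochberg adjusted p = 0.614). After scaling it was called lower (limma Benjamini-Hochberg adjusted p = 0.0108). Klb, the coreceptor that FGF21 needs, was 1.28-fold lower at 12.9 ± 1.39 with 611 and 16.6 ± 0.888 with DMSO, and Insr, the insulin receptor, was 1.38-fold lower at 18.8 ± 0.665 with 611 and 26.0 ± 0.798 with DMSO. The apelin receptor gene Aplnr was near 0, at 0.0251 ± 0.0196 with 611 and 0.0166 ± 0.0108 with DMSO.

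Other secreted products of fat cells moved in both directions. Of 55 matched genes 33 could be tested and 29 were above the filter in all 6 libraries. Of these 29, 7 were lower and 17 higher, where 17.7% of all genes tested were lower and 41.6% higher. Their median log2 fold change was 0.38 as deposited and 0.24 after scaling, against 0.10 and -0.0024 for all genes tested. Ccl2, an attractant of monocytes, was 7.18-fold higher at 6.32 ± 0.778 RPKM with 611 against 0.880 ± 0.0520 RPKM with DMSO. Hgf, hepatocyte growth factor, was 3.64-fold higher at 16.2 ± 3.53 with 611 against 4.45 ± 1.06 with DMSO. Among those that fell, C1qtnf12, a secreted relative of adiponectin, was 2.42-fold lower at 4.05 ± 0.399 with 611 and 9.79 ± 0.430 with DMSO. Agt, angiotensinogen, was also 2.42-fold lower at 29.7 ± 4.22 with 611 and 71.9 ± 7.13 with DMSO. Lpl, the secreted lipase that frees fatty acids from lipoproteins, was 2.05-fold lower at 804 ± 35.9 with 611 and 1648 ± 58.0 with DMSO. Retnla, Retnlb and Retnlg, the relatives of Retn, were too low to test. The largest limma Benjamini-Hochberg adjusted p among these 5 named genes was 4.59e-05, for Hgf.

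Of 11 tested genes that help adiponectin fold and leave the cell, 3 were lower and 4 higher. These shares were near the 17.7% and 41.6% of all genes tested. After scaling 4 were lower and 2 higher, where 28.6% and 28.5% of all genes were. Without DMSO replicate 1 the count higher was also 2. Ero1a, an oxidase that forms disulfide bonds in the endoplasmic reticulum and promotes adiponectin release, was 1.71-fold lower at 23.4 ± 1.16 RPKM with 611 and 40.0 ± 4.55 RPKM with DMSO. Its partner Erp44, which holds adiponectin back, was 1.24-fold higher at 18.4 ± 0.774 with 611 and 14.9 ± 0.272 with DMSO. Hspa5, the main chaperone of that compartment, was 1.59-fold lower at 259 ± 11.2 with 611 and 413 ± 11.3 with DMSO, and Plod1, a lysyl hydroxylase, 1.40-fold lower. Rab11a, a regulator of vesicle recycling, was 1.22-fold higher. The sorting adaptor gene Gga1 was 1.11-fold higher, a call that ended after scaling (limma Benjamini-Hochberg adjusted p = 0.979).

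Of 19 transcription factors that act on fat cell promoters, 9 were lower and 5 higher, where 17.7% of all genes tested were lower and 41.6% higher. After scaling 10 were lower and 4 higher, where 28.6% of all genes tested were lower and 28.5% higher. The median log2 fold change was -0.07 as deposited and -0.22 after scaling, against 0.10 and -0.0024 for all genes tested. Nr1h3, the oxysterol receptor LXR alpha, was 1.81-fold lower at 25.5 ± 0.152 RPKM with 611 and 46.1 ± 1.62 RPKM with DMSO. Klf15, a glucocorticoid-induced factor, was 1.70-fold lower at 3.78 ± 0.496 with 611 and 6.41 ± 1.12 with DMSO, and Cebpb was 1.39-fold lower at 57.4 ± 3.19 with 611 and 79.8 ± 7.73 with DMSO. Pparg was also called lower, 1.39-fold at 45.2 ± 1.19 with 611 and 62.8 ± 1.09 with DMSO. So was Cebpa, 1.17-fold at 58.2 ± 4.93 with 611 and 68.2 ± 2.73 with DMSO. Cebpd was 1.60-fold higher, Nfkb1, of the NF-kB family, 1.48-fold higher and Ebf1, an early B-cell factor that also works in fat cells, 1.47-fold higher. Genes of NAD synthesis and use included 7 of 13 tested that were lower, Nampt among them, and 2 that were higher, against the same 17.7% and 41.6% of all genes. Nudt12, which breaks down NADH, was 1.84-fold lower at 6.73 ± 0.527 with 611 and 12.4 ± 0.893 with DMSO. Nmnat1, the nuclear enzyme that follows Nampt, was 1.48-fold lower at 10.5 ± 1.22 with 611 and 15.5 ± 0.729 with DMSO, and Nnmt, which methylates nicotinamide, was 1.39-fold lower. Nmnat2, a relative of Nmnat1, was 3.20-fold higher at 2.88 ± 0.276 with 611 and 0.902 ± 0.125 with DMSO. Nmrk1, a nicotinamide riboside kinase, was 1.21-fold higher, a call that ended after scaling (limma Benjamini-Hochberg adjusted p = 0.0998).

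In the alternative complement pathway, where adipsin cuts factor B, genes moved in both directions. Of 12 tested genes, Cfd included, 4 were lower and 3 higher, where 17.7% and 41.6% of all genes were. Among the 10 above the filter in all 6 libraries 4 were lower and 2 higher. C3, the central complement protein, was 1.17-fold lower at 48.2 ± 1.22 RPKM with 611 and 56.4 ± 1.94 RPKM with DMSO. Cfb, factor B, was at 1.08 ± 0.0705 with 611 and 1.00 ± 0.0843 with DMSO and missed the threshold (limma Benjamini-Hochberg adjusted p = 0.474). Masp1, whose locus encodes the protease that activates pro-adipsin, was 2.89-fold higher at 11.9 ± 0.239 with 611 and 4.13 ± 0.0860 with DMSO. The call of Cd59a, a brake on the terminal pathway, 1.14-fold lower, ended with the replicate block (limma Benjamini-Hochberg adjusted p = 0.0541). The counts were 2 lower without 611 replicate 3, DMSO replicate 1 or DMSO replicate 3, and 1 higher without these or 611 replicate 2.

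**Figure D5:**
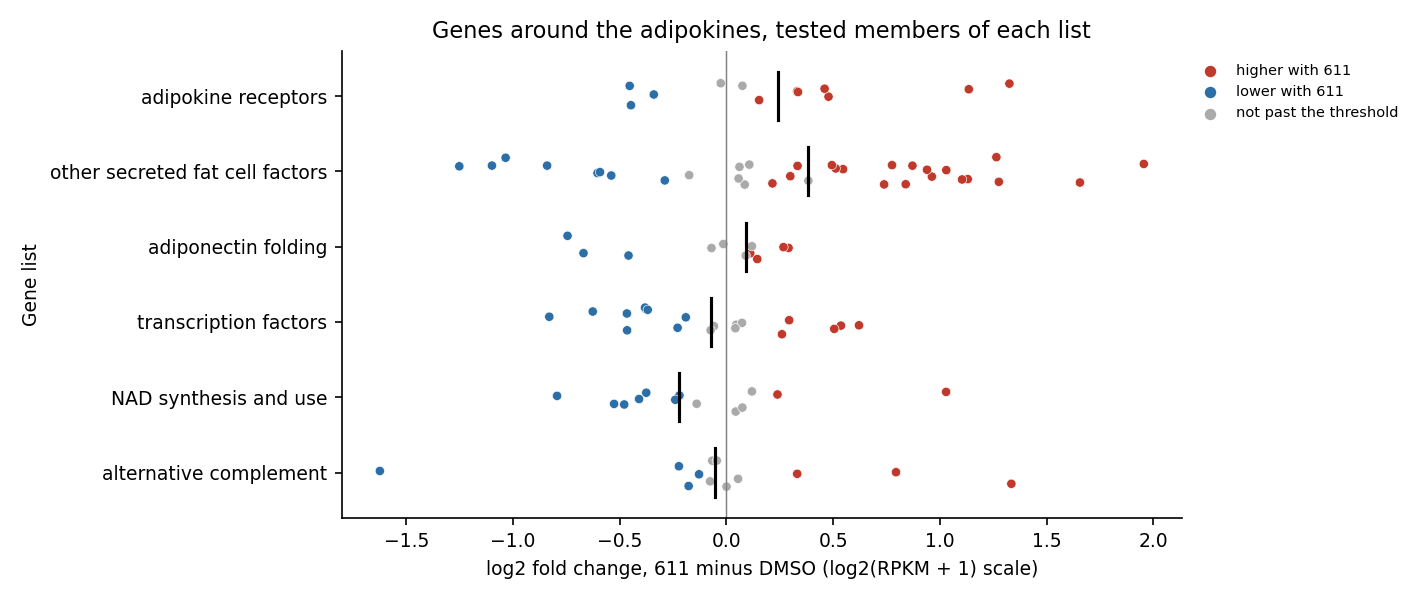
Log2 fold change, 611 minus DMSO, of each tested gene in 6 lists around the adipokines, with colour for the limma call and a black line at each list's median. The medians run from 0.38 for other secreted factors to -0.22 for NAD synthesis and use.

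Other genes followed similar profiles over the 6 libraries, which differ mainly by group. Among 7914 other genes with a mean of at least 5 RPKM, the 3 most like Adipoq were Sort1, Mpst and Gpcpd1, with Pearson r on log2(RPKM + 1) of 0.999, 0.997 and 0.997. As many as 981 genes had r of at least 0.95 with Adipoq. For Rbp4, the largest fall by ratio, the 3 most alike were Mcph1, Cdkn2c and Ankrd17, each with r of at least 0.996. Rbp4 had only 2 reads with 611, so its profile is little more than DMSO values against values near 0. With it 583 genes had r of at least 0.95, so the 3 are not set apart. Cfd was added after its values were seen because Rbp4 rests on few reads. Its 3 most alike were Arxes1, Adamts12 and Arxes2, with r from 0.999 to 1.00. With Cfd 741 genes had r of at least 0.95, so these 3 are not set apart either. Arxes1 was at 101 RPKM with 611 and 208 RPKM with DMSO, and Arxes2 at 202 RPKM with 611 and 405 RPKM with DMSO. These are near-identical copies whose reads may have been shared.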

How the data were processed

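Stranded mRNA libraries of 6 cultures were made with the TruSeq kit, per the labels' protocols. TopHat2 2.0.12, TopHat, SAMtools and build mm9 were used, per the submitters' processing notes. The authors deposited RPKM for 28430 RefSeq transcripts per library. The sources used here do not give the program behind the RPKM, its annotation or any use of strand.

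Symbols came from a RefSeq table of GRCm38.p6, which matched 27785 accessions. Groups and replicate numbers came from the sample titles. The series calls each group's libraries biological triplicates, so p-values measure the spread between 3 cultures. Totals were the value at which the largest share of transcripts under 30 reads came out whole within 0.02, at GENCODE lengths; that share was 47.3% to 48.6%, so whole reads were not used in tests. A floor is 3 reads and covers counting error only. limma 3.58.1 in R 4.3.3 with trend and group as the only term was fitted over all genes above the filter, and checked on simulated data. The study states no pairing, but the deviations of same-numbered libraries from their group means correlated across 13829 genes with r of 0.30, 0.30 and 0.18. The numbers were therefore taken to pair the cultures in the fit with the replicate block only. The main fit and the permutation tests did not pair them. Python 3.11.15, scipy 1.17.1 and matplotlib 3.10.9 were used for the rest.

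The adipokine genes and the other lists were chosen with earlier results of these data known. Genes named from a list were up to 3 called in each direction with the largest ratio, at least 1 RPKM and no overlap between groups; 1 gene that met this rule is not reported here. Adipor1, Aplnr, Cfb, Pparg, Cebpa and the 3 Retn relatives are named outside this rule, chosen after their values were seen. So are the single marker genes named, among them Ly6a, Fabp4, Elovl3, Ucp1, S100a8 and Acta1.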

Additional observations from a re-analysis of the deposited data

How the results depend on the processing

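The 14 alternatives, run for the lists and their genes only after the data were seen, were another pseudocount, no filter, a stricter filter, median-of-ratios scaling, no variance trend, the replicate block, leaving out each library, summed transcripts and, added after the data were seen, the second transcripts of Retn and Rbp4. No result reversed. Calls for Adipoq, Retn, Cfd, Rarres2, Lcn2, Nampt and Fgf21 were kept in all 14, and Rbp4 had a value in 13, since the stricter filter removed it. Apln gained a call after scaling (-0.27) and with the replicate block (-0.13), and without 1 library its log2 fold change lay between -0.19 and -0.089. Scaling moved the count of all genes called lower to 3959, of adiponectin folding genes higher to 2 and of NAD genes higher to 1. In that fit 28.6% of all genes tested were lower and 28.5% higher. In the complement list 2 were lower and 1 higher with no filter, and 2 lower with no trend. Leaving out 1 library gave 2 to 4 lower and 1 to 3 higher in the complement list and 2 to 4 higher adiponectin folding genes. Among the genes named by rule from the 6 lists, Cd59a, Gga1 and Nmrk1 lost their call in at least 1 alternative and the others in none. The replicate block changed no other call of a named gene than those of Apln and Cd59a. Depth limits what can be said of Lep and Rbp4, where Lep had 0 reads with 611 and 2 with DMSO and Rbp4 had 2 with 611 and 53 with DMSO. Leaving out a library leaves 2 against 3, with the spread pooled by limma.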
